A study of Homo sapiens with 10 samples.

Results

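The genes described here decide whether a damaged or starved cell dies: the BCL2 family, the caspases, the death receptors and the proteins that restrain them. They were chosen by symbol, 40 genes in all, and 38 of them were measured, each by 1 probe set, among 17492 named genes and 18569 probe sets. BBC3 and RIPK1 are not analysed here. RNA came from A375, a widely used human melanoma line in which BRAF is mutated to a constantly active form. Cells were plated without doxycycline (control, 5 arrays) or with doxycycline at 2 µg/ml (5 arrays), and both groups were frozen on day 4 and hybridised to Clariom S human HT arrays. The series title names Omomyc, a mutant MYC dimerisation domain that blocks MYC, which doxycycline usually induces in such lines. The labels describe neither the construct nor the clones, and no array is labelled as treated cells without Omomyc, so an effect of the drug alone cannot be told apart from one of Omomyc. Values are log2 signals, so a difference of 1 is a doubling.

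As background, the mitochondrial route to apoptosis is set by BCL2 family proteins on the outer mitochondrial membrane. BAX and BAK1 form pores that release cytochrome c, antiapoptotic members such as BCL2 and MCL1 hold them in check, and BH3-only proteins relay stress by binding the antiapoptotic members or the pore formers. Released cytochrome c joins APAF1 to activate caspase-9, while death receptors on the cell surface activate caspase-8 through FADD, and both routes end in the executioner caspases. MYC is known to sensitise cells to this machinery, and melanomas are known to lean on MCL1 and other antiapoptotic members.

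Of the pro-survival members more rose than fell with doxycycline, while as many pro-death members rose as fell, and 3 of those pro-death rises lost the call when single arrays were left out. Counted as pro-survival were the antiapoptotic BCL2 proteins, CFLAR, XIAP, BIRC2 and BIRC6, while BNIP3, BNIP3L, CASP1 and CASP4 were put on neither side and all other measured members counted as pro-death. Among the 9 pro-survival genes 5 rose, 1 fell and 3 did not pass the test (limma, adjusted p under 0.05 over all probe sets). Of 25 measured pro-death genes 6 rose, 6 fell and 13 did not pass. The rises of BAD, FAS and TRADD were all lost without control array 3 (limma adjusted p = 0.0619, 0.0701 and 0.0605) and without doxycycline array 2 (0.0951, 0.0612 and 0.0576). Either way 3 pro-death genes rose and 6 fell, while without each of the other arrays in turn 4 to 6 rose and 6 fell. In all 20 of 38 members were called (52.6%), 12 higher and 8 lower, beside 38.1% of all probe sets, of which 20.9% were higher and 17.2% lower. These shares of all probe sets, here and below, include dim probe sets, while 29 of 38 members lay above the median signal. With probe sets under the median removed, 5586 were still called, against 7078 of all 18569, and 18 of 29 members were called. Most calls were thus in brighter probe sets, and no excess of members over probe sets of like signal is shown. The median log2 fold change was 0.46 for the pro-survival genes, 0.09 for the pro-death genes and 0.04 over all probe sets. The pro-survival direction is that of the 9 members and not of every protective gene. Among other genes of the pathway, named here after their values were seen, the protective BIRC5 (-1.83), BCL2L12 (-0.93), BAG1 (-0.69) and PIM1 (-0.61) fell. The protective NAIP (0.45), TNFAIP3 (0.90) and USP9X (0.42) rose (log2 fold changes, limma adjusted p at most 0.0158 for all named here). These genes are a selection and give no balance. VDAC2 (-0.56), OPA1 (-0.54), RBCK1 (-0.51) and OTULIN (-0.33) also fell. FBXW7 (0.48), listed with USP9X as a regulator of BCL2 family turnover, also rose. Of all 64 other genes measured 13 rose and 17 fell.

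BOK, whose signal was 2.13-fold lower, and TNFRSF10A, with 1.97-fold lower signal, led the falls. The fold of BOK may understate its change, since its doxycycline mean was in the dim range where RMA compresses differences. CFLAR and BNIP3L led the rises, each with 1.71-fold higher signal. In 14 members the control and doxycycline arrays did not overlap, beside 28.6% of all probe sets. A change of at least 0.5 log2 units was called in 11 members, beside 20.2% of all probe sets.

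**Figure D1:**
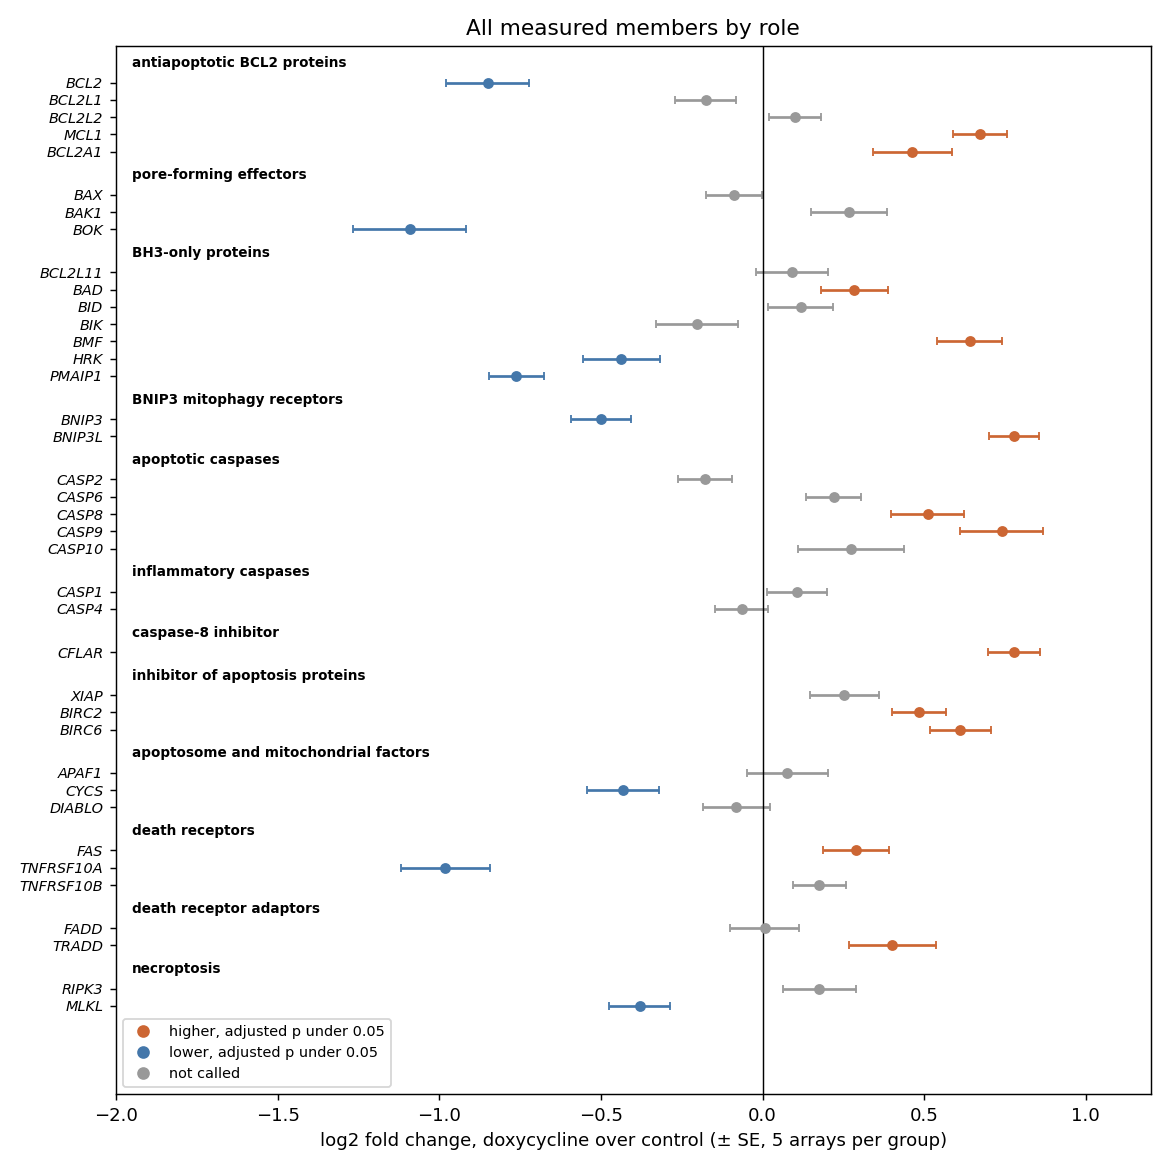
Log2 fold change of doxycycline over control (horizontal axis, ± SE, 5 arrays per group) for the 38 measured members, grouped by role. Orange points were higher and blue points lower at an adjusted p under 0.05, and the points run from -1.09 for BOK to 0.78 for CFLAR.

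The sides were also described array by array. For each array, the median over a list was taken of every gene's signal minus its control mean. The pro-survival median was 0.42, 0.31, 0.59, 0.48 and 0.36 log2 units on doxycycline arrays 1 to 5, against -0.12 to 0.05 on the control arrays. All 5 doxycycline arrays lay above all 5 control arrays on this measure. The pro-death median was 0.03, 0.15, 0.13, -0.10 and -0.02 on the same doxycycline arrays, on both sides of the control range of -0.02 to 0.01. These medians are a description of the chosen lists and were not tested.

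**Figure D2:**
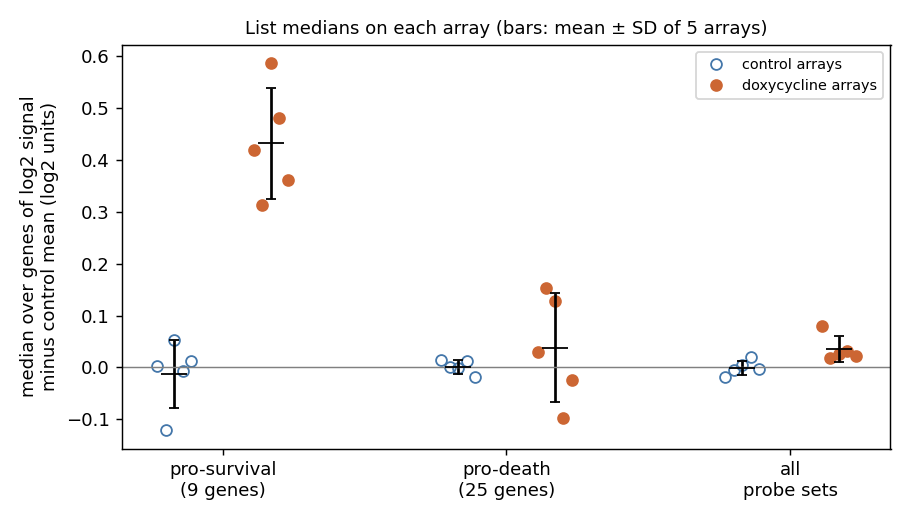
Median over the 9 pro-survival genes, the 25 pro-death genes and all probe sets of log2 signal minus the gene's control mean (vertical axis, log2 units), 1 point per array, with mean ± SD of 5 arrays. Doxycycline arrays lie between 0.31 and 0.59 for pro-survival genes and between -0.10 and 0.15 for pro-death genes.

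The labelled cell type and the arrays were also checked. Array medians of log2 signal spanned 5.02 to 5.10, and precision is limited by how many arrays there are. MYC itself read 6.06 ± 0.12 in control and 6.68 ± 0.18 with doxycycline (SD, n = 5), a measure that cannot separate MYC from an Omomyc transcript. SOX10, MITF and S100B of the melanocyte lineage were well expressed, with control means of 7.12 to 8.71, while PMEL, MLANA and TYR lay below the lowest first quartile of an array, 2.80. Mean log2 signal of the melanocytic list (6 of 7 markers measured, 3 higher) was 4.97 to 5.04 on control and 5.28 to 5.38 on doxycycline arrays. The 3 were MITF, S100B and the dim TYR. The 4 keratinocyte markers had mean signals of 2.37 to 2.60 and 2.30 to 2.51, with 1 higher, and the 3 endothelial markers 2.54 to 2.73 and 2.50 to 3.05, with none called. Of 5 fibroblast markers 4 were higher (4.02 to 4.18 against 4.78 to 4.96), and of 4 leukocyte markers measured 2 were higher, CD14 and LYZ (3.49 to 3.78 against 3.97 to 4.27). The largest fibroblast rises were in PDGFRA (means of 4.52 and 6.16) and LUM (3.45 and 4.97). LYZ was well expressed, with means of 6.87 in control and 8.31 with doxycycline, and CD14 had 2.82 and 3.34. The leukocyte-defining PTPRC had means of 2.15 and 2.07, and no marker was at 0. The part of these markers in the results below was not tested, and in bulk RNA fewer cells and less RNA per cell cannot be told apart.

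Promoters of 5 members are shown here because they hold letters of the motifs of MYC, cAMP-responsive or NF-kB factors and belong to members that went up, down or neither. RefSeq windows (GRCh38.p14, 250 bases before to 50 after each start) were found for 28 of the 38 members, 51 windows in all. Each sequence is the run of 200 bases that ends just before the most upstream start, or at the start base for BIRC2, read 5′ to 3′ on the gene's strand, with the motif in capitals. BAX lies at chr19:48954675-48954874 (plus strand) and BNIP3 at chr10:131981924-131982123 (minus strand), both with the E-box CACGTG that MYC and MAX bind. BIRC2 at chr11:102347015-102347214 (plus strand) holds the cAMP response element TGACGTCA. CFLAR at chr2:201118516-201118715 and PMAIP1 at chr18:59899796-59899995 (both plus strand) hold a kB-like motif, GGG and TTCC with any 3 bases between them.
BAX: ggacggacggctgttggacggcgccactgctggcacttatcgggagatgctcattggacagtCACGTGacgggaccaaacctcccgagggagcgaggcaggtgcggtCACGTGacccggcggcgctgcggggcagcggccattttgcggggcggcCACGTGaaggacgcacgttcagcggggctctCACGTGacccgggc
BNIP3: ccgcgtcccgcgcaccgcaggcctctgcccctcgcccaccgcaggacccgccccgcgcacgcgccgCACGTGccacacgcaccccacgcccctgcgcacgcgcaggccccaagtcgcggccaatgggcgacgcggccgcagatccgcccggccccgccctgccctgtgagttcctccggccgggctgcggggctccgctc
BIRC2: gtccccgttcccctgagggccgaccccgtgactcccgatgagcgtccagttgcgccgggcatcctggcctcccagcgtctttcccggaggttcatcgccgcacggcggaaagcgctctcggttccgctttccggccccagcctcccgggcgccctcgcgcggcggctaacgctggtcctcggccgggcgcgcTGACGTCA
CFLAR: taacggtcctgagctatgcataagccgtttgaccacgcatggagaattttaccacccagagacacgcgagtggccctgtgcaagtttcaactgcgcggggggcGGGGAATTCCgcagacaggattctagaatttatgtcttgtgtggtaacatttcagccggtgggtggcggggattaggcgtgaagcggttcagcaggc
PMAIP1: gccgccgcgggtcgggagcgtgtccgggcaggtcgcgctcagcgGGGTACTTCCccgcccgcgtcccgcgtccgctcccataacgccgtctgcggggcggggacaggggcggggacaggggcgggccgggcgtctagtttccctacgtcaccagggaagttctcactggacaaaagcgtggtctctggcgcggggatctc

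The BAX sequence carries 4 E-boxes, whose first bases lie 138, 93, 45 and 14 bases before the start. BAX nonetheless did not pass the test, with a log2 fold change of -0.09. Both strands were searched, and the E-box and the cAMP response element read the same on either. The E-box was found in the windows of 4 of 28 members, BAX, BID, BNIP3 and DIABLO, of which BNIP3 alone was called. Among all 14129 measured genes with a window 10.8% held it. The cAMP response element was in the windows of 1 of 28 members, BIRC2, and of 3.04% of all measured genes with a window. The kB-like motif was in the windows of 2 of 28 members, CFLAR, which rose, and PMAIP1, which fell, and of 9.28% of all measured genes with a window. A match describes letters and shows no binding, and genes with several starts have several windows.

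Among the antiapoptotic BCL2 proteins, MCL1 and BCL2 moved in opposite directions. MCL1, a short-lived protector that binds BAK1 and BH3-only proteins, read 10.75, 10.65, 10.80, 10.82 and 10.72 on control arrays 1 to 5 and 11.45, 11.50, 11.44, 11.20 and 11.52 on doxycycline arrays 1 to 5. Every doxycycline array was above every control array, and the log2 fold change was 0.67 ± 0.08 (SE, limma adjusted p = 1.08e-05). BCL2, the founding protector of the family, read 5.56, 5.12, 5.58, 5.63 and 5.92 in control and 4.89, 4.60, 4.88, 4.55 and 4.63 with doxycycline. Here all doxycycline arrays were below all control arrays, with control array 2 the nearest to them, and the change was -0.85 ± 0.13 (limma adjusted p = 8.16e-05).

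The other antiapoptotic members changed less. BCL2L1, which encodes BCL-XL, read 7.45, 7.37, 7.52, 7.56 and 7.44 in control and 7.54, 7.40, 7.06, 7.29 and 7.17 with doxycycline. Its groups overlapped through doxycycline arrays 1 and 2. The change of -0.18 ± 0.09 missed the threshold (95% interval -0.38 to 0.03, limma adjusted p = 0.167), and without doxycycline array 1 it was -0.24 and passed (limma adjusted p = 0.0435). BCL2L2, which encodes BCL-W, differed by 0.10, with a 95% interval of -0.07 to 0.27. BCL2A1, a protector that MITF and NF-kB are known to induce, rose by 0.46 ± 0.12 without overlap (limma adjusted p = 0.00699). Its control mean was 3.69, near the dim end of the arrays, where RMA compresses differences. A gene-level probe set does not separate the protective and death-promoting splice forms of MCL1 and BCL2L1.

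**Figure D3:**
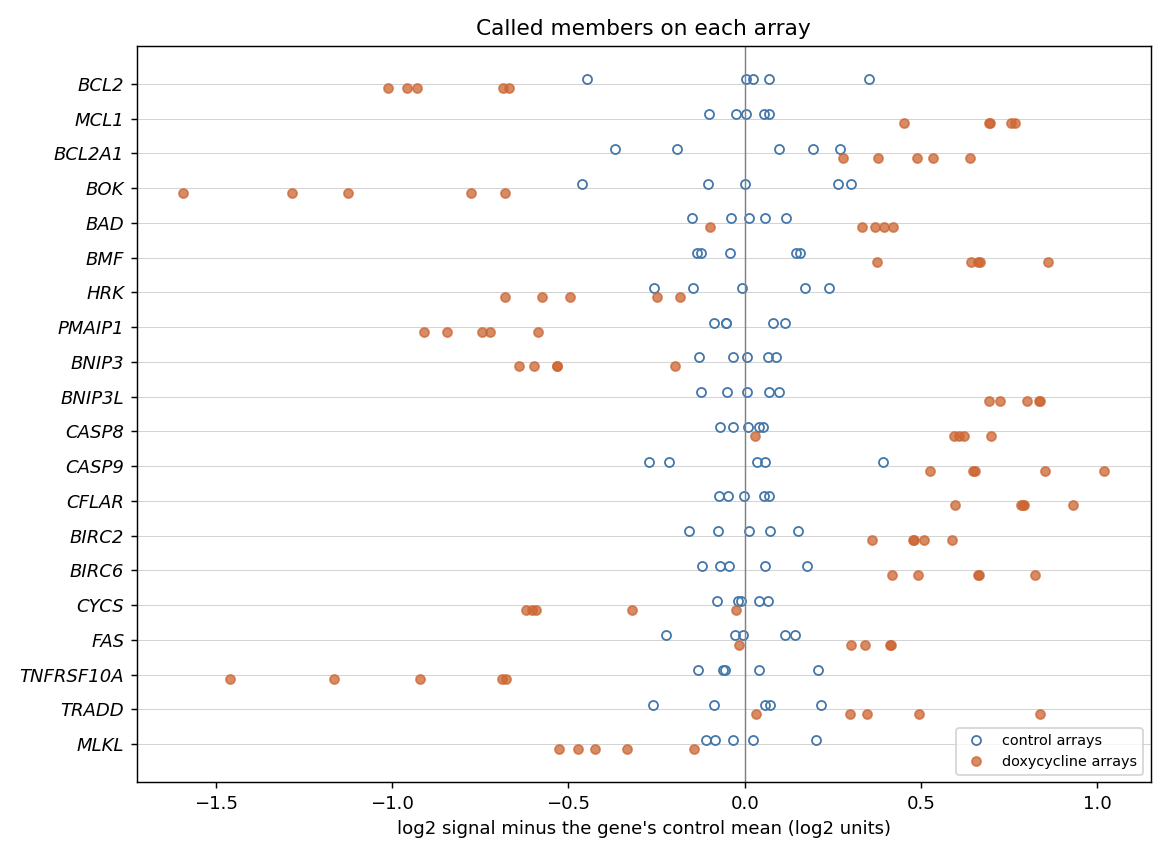
Log2 signal minus the gene's control mean (horizontal axis, log2 units) for the 20 called members, with open blue points for the 5 control arrays and orange points for the 5 doxycycline arrays. The points separate fully for 14 members, and single doxycycline arrays reach the control range for BAD, CASP8, CYCS, FAS and TRADD, as 2 arrays do for HRK.

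The pore formers did not share a direction. BAX read 8.21, 8.12, 7.94, 8.08 and 8.0 in control and 8.10, 8.10, 7.84, 7.86 and 8.02 with doxycycline, so the groups lay over each other (95% interval of the difference -0.27 to 0.10). BAK1, which MCL1 restrains, read 5.24, 5.57, 5.39, 5.51 and 5.82 in control and 5.89, 5.93, 5.80, 5.46 and 5.77 with doxycycline. Control array 5 and doxycycline array 4 crossed the other group. BAK1 missed the threshold at 0.27 ± 0.12 (limma adjusted p = 0.0883). It passed at 0.35 without control array 5 and at 0.34 without doxycycline array 4 (limma adjusted p = 0.0246 and 0.0263), at 0.30 with arrays centred on their medians (limma adjusted p = 0.0481), and among probe sets above the median signal (limma adjusted p = 0.0449).

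BOK, a BAX-like protein that is known to act largely outside the control of the antiapoptotic members, fell. It read 3.77, 3.88, 3.42, 4.14 and 4.18 in control and 2.59, 3.10, 3.20, 2.75 and 2.28 with doxycycline. All treated arrays were below all controls, with a change of -1.09 ± 0.18 (limma adjusted p = 1.41e-04), and the doxycycline mean of 2.79 lay under the lowest first quartile.

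BH3-only genes, which carry the stress signals, moved both ways: of 7 measured 2 rose, 2 fell and 3 did not pass. The share called was 57.1%, beside 38.1% of all probe sets. PMAIP1 encodes NOXA, a p53- and ATF4-inducible protein that binds MCL1 and promotes its degradation. It read 7.18, 7.01, 7.14, 7.01 and 6.98 in control and 6.32, 6.15, 6.34, 6.22 and 6.48 with doxycycline. The arrays were tightly grouped and separate, and the change was -0.76 ± 0.08 (limma adjusted p = 3.77e-06). BMF, a BH3-only protein linked to the cytoskeleton, went the other way, from 4.75, 4.57, 4.48, 4.47 and 4.77 to 5.47, 4.98, 5.25, 5.27 and 5.27. Again no array crossed, with a rise of 0.64 ± 0.10 (limma adjusted p = 1.14e-04).

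BIM, encoded by BCL2L11 and known to be held down by MAPK signalling in BRAF-mutant melanoma, showed no separation. BCL2L11 read 5.96, 5.85, 5.96, 6.10 and 5.87 in control and 5.76, 6.24, 6.10, 6.29 and 5.81 with doxycycline (95% interval of the difference -0.15 to 0.33). Doxycycline arrays 1 and 5 were the lowest 2 of all 10 arrays and arrays 2 and 4 the highest 2. HRK, a BH3-only protein best known from neurons, fell by 0.44 ± 0.12 on the log2 scale from a dim 3.40 ± 0.21 (SD, n = 5; limma adjusted p = 0.00943). BAD, which growth factor kinases inactivate, rose by 0.28 ± 0.10 (limma adjusted p = 0.0440), with doxycycline array 4 inside the control range. The BAD call was lost when any 1 of 8 arrays was left out, control arrays 2 to 5 and doxycycline arrays 1, 2, 3 and 5, with adjusted p up to 0.100. BID, which caspase-8 cleaves to link the death receptors to mitochondria (0.12, interval -0.10 to 0.33), and BIK (-0.20, interval -0.47 to 0.07) did not pass.

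BNIP3 and BNIP3L, related receptors that mark mitochondria for autophagy and were first described through a BH3-like stretch, parted. BNIP3L, also called NIX, read 9.53, 9.67, 9.58, 9.64 and 9.45 in control and 10.41, 10.30, 10.27, 10.38 and 10.41 with doxycycline. It rose by 0.78 ± 0.08 with a wide gap between groups (limma adjusted p = 1.12e-06). BNIP3 read 9.21, 9.11, 9.15, 9.24 and 9.02 in control and 8.95, 8.50, 8.61, 8.55 and 8.61 with doxycycline. Doxycycline array 1 lay just under the controls and the other 4 well under them, for a change of -0.50 ± 0.09 (limma adjusted p = 5.62e-04).

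Some related members can be set against each other array by array. The values are differences between the changes of a pair of genes, not between their levels, and the pairs were chosen after their values were seen, so they are descriptions with no test. The change of MCL1 exceeded that of BCL2 by 1.52 ± 0.14 log2 units (SE, n = 5 arrays per group). That of BNIP3L exceeded that of BNIP3 by 1.28 ± 0.08, and that of TNFRSF10B exceeded that of TNFRSF10A by 1.16 ± 0.20. In these 3 pairs the difference on each of the 5 doxycycline arrays was above that on every control array. They are part of 6 pairs looked at, and the rest did not separate fully. Above every control array were 4 of 5 doxycycline arrays for CFLAR against CASP8. For BAK1 against BAX and for CASP9 against APAF1 there were 2 of 5 each.

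**Figure D4:**
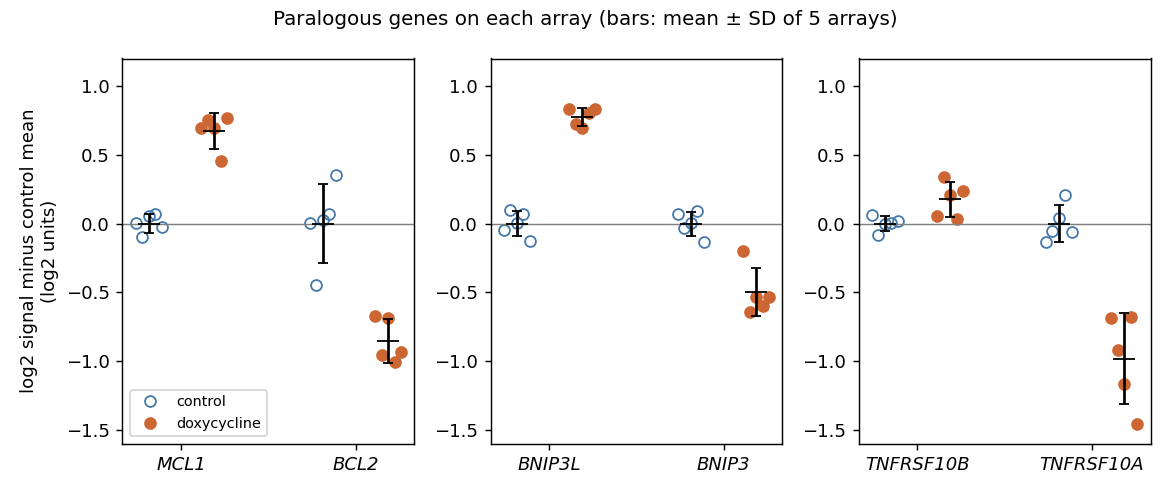
Log2 signal minus the gene's control mean (vertical axis, log2 units) for 3 pairs of related genes, 1 point per array, with mean ± SD of 5 arrays. Doxycycline arrays rise for MCL1 and BNIP3L and fall for BCL2, BNIP3 and TNFRSF10A, while TNFRSF10B shifts by 0.18.

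Caspases are proteases made as inactive precursors. Of the 5 apoptotic caspase genes 2 rose and none fell, a share called of 40%, near the 38.1% of all probe sets. CASP9, activated on the APAF1 wheel, read 4.82, 5.42, 5.09, 5.06 and 4.76 in control and 5.88, 5.68, 5.56, 5.68 and 6.05 with doxycycline. It rose by 0.74 ± 0.13 without overlap (limma adjusted p = 2.85e-04). CASP8, the initiator at death receptors, read 7.77, 7.80, 7.69, 7.73 and 7.82 in control and 7.79, 8.36, 8.37, 8.39 and 8.46 with doxycycline. On doxycycline array 1 it sat among the controls and on the other 4 arrays well above them. The rise was 0.51 ± 0.11 (limma adjusted p = 0.00223), and 0.63 without that array.

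The remaining caspases did not pass. CASP10, a close relative of CASP8, differed by 0.27 (interval -0.08 to 0.62), and by 0.43 without doxycycline array 1, where it passed (limma adjusted p = 0.0110). Its means of 3.36 in control and 3.63 with doxycycline were near the dim end of the arrays. CASP6, an executioner, differed by 0.22 ± 0.09 (limma adjusted p = 0.0542). CASP6 passed without control array 4 (0.26, limma adjusted p = 0.0267), with centred arrays (0.25, limma adjusted p = 0.0349) and with dim probe sets removed (limma adjusted p = 0.0393 and 0.0239 at the 25th percentile and the median). CASP2, which responds to failed mitosis, had a change of -0.18 (interval -0.36 to 0.00). The inflammatory caspases, which drive pyroptosis, stayed within intervals of -0.09 to 0.30 for CASP1, whose signal lay under the first quartile, and -0.24 to 0.11 for CASP4.

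CFLAR, which encodes the caspase-8-like inhibitor c-FLIP, rose as much as BNIP3L. It read 8.13, 8.08, 8.19, 8.06 and 8.20 in control and 8.73, 8.92, 8.92, 9.06 and 8.92 with doxycycline. All treated arrays were above all controls, with a change of 0.78 ± 0.08 (limma adjusted p = 1.90e-06). In the order of measured genes, CFLAR, CASP10 and CASP8 stand next to each other on chromosome 2, the single run of neighbours among the members. Long and short forms of c-FLIP, which differ in function, are not separated by this measure.

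Inhibitor of apoptosis proteins bind caspases or tag them and their partners with ubiquitin. Of the 3 measured members 2 rose, beside 20.9% of all probe sets. BIRC6, a giant ubiquitin ligase, read 7.77, 7.72, 7.90, 7.80 and 8.02 in control and 8.26, 8.33, 8.50, 8.66 and 8.50 with doxycycline, a rise of 0.61 ± 0.09 without overlap (limma adjusted p = 9.59e-05). BIRC2, or cIAP1, which ubiquitinates RIPK1 at the TNF receptor and whose promoter holds the cAMP response element, rose by 0.48 ± 0.08 (limma adjusted p = 2.60e-04), from 6.72 to 7.03 across control arrays to 7.24 to 7.47. XIAP, the direct caspase inhibitor, missed the threshold at 0.25 ± 0.11 (limma adjusted p = 0.0774). XIAP passed without control array 1 (0.31, limma adjusted p = 0.0353), without doxycycline array 5 (0.32, limma adjusted p = 0.0252) and among probe sets above the median signal (limma adjusted p = 0.0380).

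Downstream of the mitochondrial pore, 1 of 3 genes was called, or 33.3%, near the 38.1% of all probe sets. CYCS, which encodes cytochrome c, the electron carrier that starts the apoptosome, fell by 0.43 ± 0.11 on the log2 scale (limma adjusted p = 0.00609). It was 8.21 to 8.36 on the control arrays and 7.97, 7.70, 8.27, 7.69 and 7.67 with doxycycline, so array 3 stayed within the control range. APAF1, the scaffold of the apoptosome (0.08, interval -0.19 to 0.35), and DIABLO, the mitochondrial antagonist of XIAP (-0.08, interval -0.30 to 0.14), did not pass.

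Of the TRAIL receptors TNFRSF10A fell. TNFRSF10A, or DR4, read 7.46, 7.54, 7.63, 7.80 and 7.53 in control and 6.90, 6.67, 6.43, 6.92 and 6.13 with doxycycline. The groups were separate, with more spread among the treated arrays, and the change was -0.98 ± 0.14 (limma adjusted p = 3.81e-05). TNFRSF10B, or DR5, a target of p53 and of the stress factor CHOP, differed by 0.18 ± 0.08 (limma adjusted p = 0.111). FAS, the receptor of FAS ligand, read 6.28, 6.40, 6.26, 6.43 and 6.06 in control and 6.27, 6.59, 6.70, 6.70 and 6.63 with doxycycline. Doxycycline array 1 again sat among the controls. The FAS rise of 0.29 ± 0.10 (limma adjusted p = 0.0354) was lost without any 1 of 7 arrays, control arrays 1, 3 and 5 and doxycycline arrays 2 to 5 (adjusted p up to 0.0921), and was 0.37 without array 1.

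Of the adaptors, FADD, which joins FAS and the TRAIL receptors to caspase-8, differed by 0.01, with an interval of -0.22 to 0.23. TRADD, the adaptor of the TNF receptor, rose by 0.40 ± 0.13 (limma adjusted p = 0.0273). The TRADD call was lost without control array 1 or 3 or doxycycline array 1 or 2 (adjusted p up to 0.0760). In necroptosis, a caspase-independent lysis, the executioner MLKL fell by 0.38 ± 0.09 on the log2 scale without overlap (limma adjusted p = 0.00437). The kinase RIPK3, which activates MLKL, was dim in both groups, with means of 2.14 and 2.32, and differed by 0.18 (interval -0.07 to 0.42).

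Doxycycline array 1 was most often the doxycycline array nearest to the control mean. Nearest need not be close: for CFLAR it read 8.73, above the highest control array at 8.20. Among the 20 called members doxycycline array 1 lay nearest to the control mean in 7, against 4 for array 3, 5 for array 4 and 2 each for arrays 2 and 5. Without it 20 members were called, and the medians were 0.46 for pro-survival and 0.04 for pro-death genes.

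Other genes of the pathway were read from a list of 72, of which 64 were measured. Of these 13 rose and 17 fell, or 46.9%, beside the 38.1% of all probe sets. Most mitochondrial factors were lower: 7 of 9 fell, beside 17.2% of all probe sets, and 1 rose, with a median log2 fold change of -0.54. VDAC1, the main outer membrane channel (-0.91 ± 0.08), and MTCH2, the membrane receptor of cleaved BID (-0.83 ± 0.09), fell most. VDAC2, which holds BAK1 at mitochondria (-0.56), VDAC3 (-0.44), the cristae GTPase OPA1 (-0.54), cyclophilin D, PPIF (-0.62), and the nuclease ENDOG (-0.46) fell with them. The protease HTRA2 rose (0.39), and AIFM1 differed by 0.14.

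Beyond the mitochondrion, the largest change on that list was in survivin, BIRC5, a mitotic member of the inhibitor family (-1.83 ± 0.13). PARP1, a DNA repair enzyme and classical caspase substrate (-1.30 ± 0.09), and GSDME, a pore former that caspase-3 opens (-0.93 ± 0.15), fell. They were the 2 of 8 called among other caspases and substrates, or 25%, beside 38.1% of all probe sets. Among 9 other BCL2 family genes BCL2L12 fell (-0.93 ± 0.14) and MOAP1, a BAX activator, rose (0.52), a share called of 22.2%. Ligands and other receptors had 3 of 9 higher, TNFRSF21 (0.79), TNFRSF1A (0.60) and TNFRSF12A (0.52), and none lower, or 33.3% called. Of 15 partners of the receptor complexes 4 rose and 3 fell, or 46.7%, with the ubiquitin editor TNFAIP3 highest (0.90 ± 0.08). Among 11 regulators 3 rose and 3 fell, or 54.5%. FOXO1, a transcription factor that is known to induce BH3-only genes, rose most (1.31 ± 0.09). For these 8 genes with an error the limma adjusted p was at most 1.55e-04, for GSDME.

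**Figure D5:**
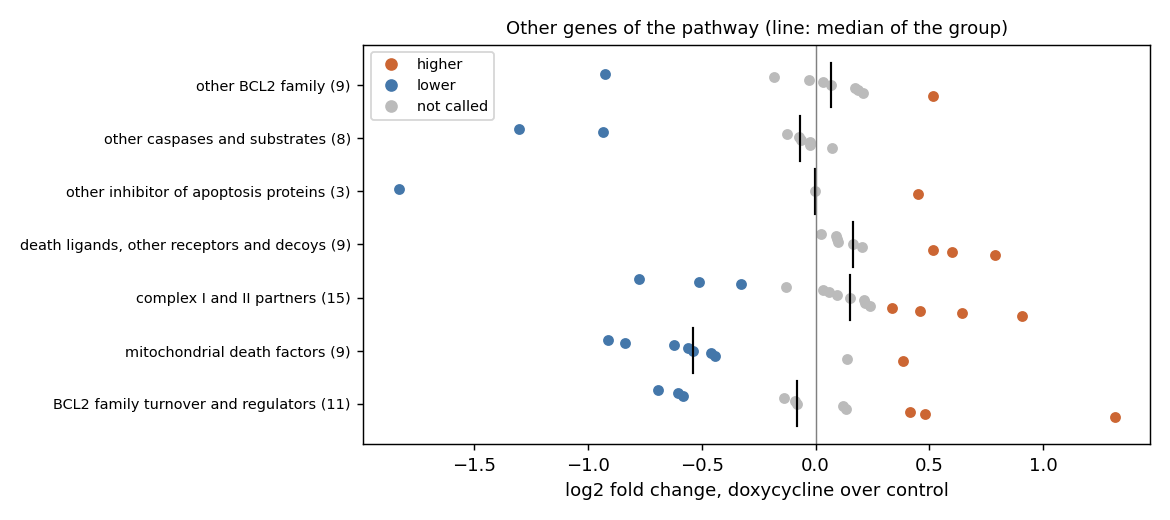
Log2 fold change of doxycycline over control (horizontal axis) for 64 other genes of the pathway, 1 point per gene, grouped by role with the number of genes in brackets and a line at each median. The mitochondrial factors lie mostly left of 0, with a median of -0.54, and the ligands and receptors lie right of 0.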

How the data were processed

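Biotin-labelled total RNA was hybridised, 1 array per sample. The authors deposited log2 values made with RMA (background correction, quantile normalization and probe set summary), per the submitters' processing notes; its version is not given in the sources used here. RMA equalises arrays, so a change of total RNA would not be seen. The labels call the arrays biological replicas without naming separate cultures, so each p-value reflects only the scatter of these samples and part of it may be technical.

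Symbols came from the platform annotation. Groups were compared in R 4.3.3 with limma 3.58.1 (lmFit, then eBayes), two-sided, with Benjamini-Hochberg adjustment over 18569 probe sets. The median SE was 0.10 log2 units. Intervals are 95% limma intervals. The fit was tested on simulated data.

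Members and lists were chosen with earlier results of these data known. Every measured member is named. Values on every array are given for called members with a change of at least 0.5 log2 units, for BCL2, BCL2L1, MCL1, BCL2L11, BAX, BAK1, CFLAR, CASP8 and FAS, and for BNIP3, chosen after its values were seen. Of the other genes the 8 largest called changes were named by rule, and the rest after their values were seen. Alternatives were filters on dim probe sets, centring, variance priors, a replicate block and leaving out each array. The mean of a gene's probe sets was also run, but each member has 1 probe set, so it changes no member's value.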

Additional observations from a re-analysis of the deposited data

Results flagged for a closer look

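Single arrays stood apart from the other 4 of their group in 7 of 92 groups of 5 looked at, where chance gives about 1 in 20, or 4.6. The number given is the gap to the nearest other array divided by the range of the group. Doxycycline array 1 was nearest to control for CASP8 (7.79 beside 8.36 to 8.46, ratio 0.843), BNIP3 (8.95 beside 8.50 to 8.61, ratio 0.754) and FAS (6.27 beside 6.59 to 6.70, ratio 0.740). Doxycycline array 4 was low for MCL1 (11.20 beside 11.44 to 11.52, ratio 0.762) and BAD (6.48 beside 6.91 to 7.0, ratio 0.828), and high for VDAC1 (8.25 beside 8.02 to 8.05, ratio 0.853). Control array 5 was low for VDAC1 (8.80 beside 9.01 to 9.07, ratio 0.770).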

How the results depend on the processing

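Of the 20 called members 17 kept direction and call under every alternative that tested them, and the exceptions were BAD, FAS and TRADD. Leaving out 1 array at a time gave 17 to 20 called members, 9 to 12 higher and 8 to 9 lower. It gave 3 to 6 pro-death genes higher and 6 lower, 5 to 6 pro-survival genes higher and 1 to 2 lower (2 without doxycycline array 1, where BCL2L1 passed), 29 to 31 called genes of the wider list, and medians of 0.37 to 0.52 for pro-survival and 0.04 to 0.15 for pro-death genes. The other alternatives gave 18 to 22 called members. Over all probe sets 6378 to 7237 were called with 1 array left out and 5586 to 7309 under the other alternatives. The filters on dim probe sets also change how many probe sets and members are tested. With the replicate block 18 members were called, 4 pro-death genes higher and 6 lower, without FAS (limma adjusted p = 0.0519) and TRADD (limma adjusted p = 0.0696). Same-numbered arrays did not deviate together, with correlations of -0.44 to -0.01 over probe sets and none best with its own number. These correlations cannot exclude that same-numbered samples were handled together. Filters on dim probe sets left 36 members at the 25th percentile and 29 at the median. The called members BCL2A1, BOK, BMF, HRK and TRADD were under the median and so were not tested there. Dim signal limits BOK, HRK, BCL2A1, BIK, CASP10, CASP1 and RIPK3.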
